A study of Gallus gallus with 4 samples.

Results

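The genes BLB1, DMA, DMB2, BF1, TAP2 and CTSS, which belong to the pathway that presents antigen on molecules of the major histocompatibility complex (MHC), were followed in chicken ovaries. They were chosen by name in the gene table that accompanies the study, and are 6 of the 17934 genes of its gene ontology (GO) analysis. The rule chose genes of that table, whose part used here lists genes called differentially expressed in the early-maturing hens, and earlier results of these data were known when they were chosen. Their calls are therefore a description and no test of them was made. All 6 were called differentially expressed between the 2 ages in the early-maturing hens, where 28.1% of all genes were called, and all 6 were called again in the late-maturing hens, where 23.2% were. The population of these shares is larger than the number of genes that the paper reports as detected, so it holds undetected genes too. The table used holds genes called in the early-maturing hens, so the share nearest to the late calls is that of such genes. Of the identifiers of that table named in both GO tables, 63.8% were called in the late-maturing hens too. The late calls are not independent of the choice either, so this share is background and no test.

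Ovaries of Ningdu Yellow chickens were taken from 2 sub-breeds at 2 ages each. The early-maturing sub-breed was sampled at 32 days, before laying (P-F-O1), and at 103 days, in lay (P-F-O2). The late-maturing sub-breed was sampled at 32 days, before laying (L-F-O1), and at 153 days (L-F-O2). The sources disagree on L-F-O2: its own label gives a laying hen, whereas the design text gives a hen that had not yet laid, so only its name and age are used. All birds were caged and fed the same diet. Each library was an equal mix of ovary RNA from several hens, with 1 library per condition, so that differences between ages have no replicate check. The older ovaries of the 2 sub-breeds differ in age as well as in sub-breed, and these cannot be told apart. The deposited tables hold the gene identifiers that the authors called differentially expressed, term by term, but no level per library. A call therefore carries here neither a direction nor a size, depth per library and ovarian identity could not be examined from the tables, and no interval is given, since genes are not replicates. The paper reports more reads, and a lower mapped percentage, for the older library of each comparison than for the younger one. Depth thus went with age in both comparisons, and its part in the calls was not tested. By the authors' criterion a gene could be called on a more than 2-fold difference between the 2 libraries without passing a p-value. In whole ovaries, more cells of a type and more RNA per cell cannot be told apart either.

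MHC class II molecules are displayed by antigen-presenting cells such as macrophages, dendritic cells and B cells, and carry peptides from engulfed material to helper T cells. Class I molecules are displayed by nearly all nucleated cells and carry peptides made inside the cell to cytotoxic T cells. In the chicken most of these genes lie in a compact stretch, the B locus, on a microchromosome. The ovary is populated by macrophages and lymphocytes, which are known to take part in follicle turnover.

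In the RefSeq annotation of GRCg7b, to which all 6 genes were matched through the protein record named in the gene table, 5 of them lie on chromosome 16 and CTSS on chromosome 25. The authors' reads were aligned to the older build galGal4, so the annotation is used for the order of genes only. From BLB1 to BF2 the order on chromosome 16 is BLB1, TAPBP, BLB2, BRD2, DMA, DMB1, DMB2, BF1, TAP1, TAP2 and BF2. Of these 11 genes, 6 were paired with an identifier, namely the 5 members and TAPBP (tapasin, which holds class I molecules at the peptide transporter), and all 6 were called in both comparisons. The other genes of the stretch were not analysed here. A name is paired with an identifier only if the gene was called in the early-maturing hens, so the early calls in this stretch follow from the pairing. Beside the late calls, 63.8% of the early-called identifiers of the gene table named in both GO tables were called in the late-maturing hens. As 5 of the 6 genes are the members themselves, TAPBP alone adds to them, and the calls do not describe the whole stretch. The stretch holds 3 pairs of close copies, BLB1 with BLB2, BF1 with BF2 and DMB1 with DMB2. Short reads can be split between such copies, and how the authors' counting treated them is not given in the sources used here, so the calls of BLB1, BF1 and DMB2 are uncertain in that respect. DMA overlaps DMB1 in this annotation, BLB1 overlaps BLEC1 and CTSS overlaps CTSK. The use of strand in the counting is likewise not given in the sources used here.

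**Figure D1:**
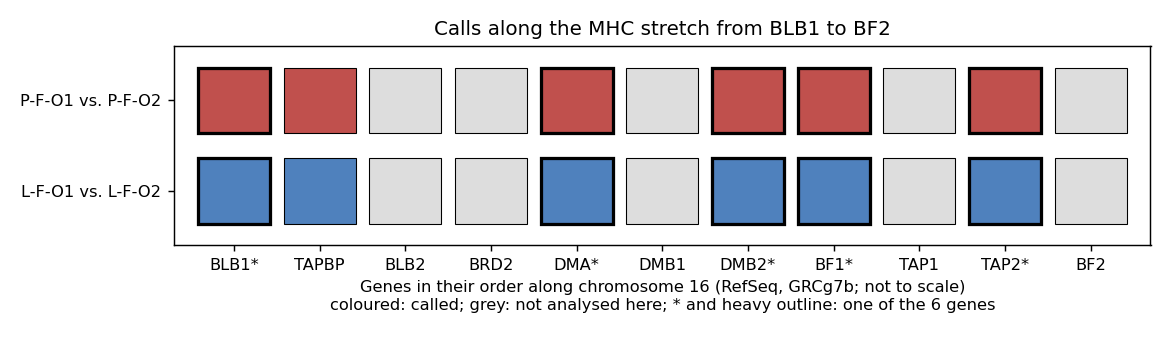
Calls of the genes from BLB1 to BF2, in their order along chromosome 16 (horizontal axis, not to scale), in each comparison (rows). A coloured box is a called gene, a grey box a gene not analysed here, and a heavy outline marks a member. All 6 genes with an identifier were called in both rows. Of these, 5 are the members, and an identifier was paired only with genes called in the early-maturing hens. Beside the late calls, 63.8% of the early-called identifiers of the gene table named in both GO tables were called in the late-maturing hens.

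BLB1 (ENSGALG00000000141) encodes the beta chain of a classical class II molecule, the chain that forms part of the peptide groove. It was called in both comparisons. Of all identifiers named in the GO tables of both, 17.8% were called in both, but the early call of each member was fixed by its choice from the table. DMA (ENSGALG00000000158) and DMB2 (ENSGALG00000000166) encode the alpha chain and one of the beta chains of DM, which exchanges peptides on class II molecules inside the cell. Both were called in both comparisons.

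BF1 (ENSGALG00000000178) encodes a classical class I heavy chain, which displays peptides at the cell surface. TAP2 (ENSGALG00000000181) is one subunit of the transporter that pumps peptides into the endoplasmic reticulum for loading on class I. CTSS (ENSGALG00000000775), cathepsin S, is a lysosomal protease known in mammals for cutting the invariant chain from class II molecules. These class I and protease genes were called in both comparisons as well. The members thus comprised 3 class II genes, 2 class I genes and 1 protease, and none of them was called in 1 comparison alone. Their early calls were fixed by their choice, and their late calls are not independent of it, since earlier results were known. Beside their late calls, 63.8% of the early-called identifiers of the gene table named in both GO tables were called in the late-maturing hens.

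The 6 genes were found in 62 GO terms, of which 38 were listed in both tables. The table of the early-maturing hens lists 53 of them and that of the late-maturing hens 47. All 6 genes shared 2 terms, immune system process and response to stimulus. A further 5 terms held 5 of them, 3 terms held 4, 14 terms held 2, and 38 terms held 1 gene each. BLB1, DMB2 and BF1 carried exactly the same 10 terms, although BF1 belongs to class I and the others to class II. DMA carried these 10 and 31 more, 41 in all. TAP2 had 27 terms and CTSS 17. TAP2 shared 3 terms with each of BLB1, DMB2 and BF1 (Jaccard index 0.088, the shared terms as a part of the terms of either gene), and CTSS shared 6 (0.286).

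Antigen processing and presentation held 35 genes, among them BLB1, DMA, DMB2, BF1 and TAP2. In the early-maturing hens 21 of the 35 genes were called (60.0%) and in the late-maturing hens 16 (45.7%). Only the early table lists the term, but all its genes are named in the late table through broader terms, so both counts are complete. Each of the 16 genes called in the late-maturing hens had also been called in the early one. Of the others, 5 were called in the early-maturing hens alone and 14 in neither. Without the 5 members the term held 30 genes, of which 16 were called in the early-maturing hens (53.3%) and 11 in the late one (36.7%). Its smaller branch, antigen processing and presentation of peptide antigen, held 12 genes with DMA and TAP2 among them. Of these, 10 were called in the early-maturing hens (83.3%) and 9 in the late one (75.0%), and without the 2 members 8 and 7 of 10.

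Members and the genes PROCR and TRAF6 aside, the called genes of these terms that have a name are further parts of the same route. B2M, beta-2-microglobulin, is the light chain of class I molecules. TAPBP (TPN in the gene table) is tapasin. CD74 is the invariant chain that guards the class II groove, and GILT is a lysosomal thiol reductase that unfolds antigens. PROCR, the endothelial protein C receptor, has an MHC-like fold, and TRAF6 is a signalling adaptor. All 6 were called in both comparisons. A name is given only to genes called in the early-maturing hens, so only the late calls inform. For these the share was 63.8% over the gene table. It was 68.8% over the early-called genes of antigen processing and presentation other than the members, a share that counts these 6 genes themselves. The 5 genes called in the early-maturing hens alone have no name in the part of the gene table used here. That part ends at Ensembl number 9640, but ENSGALG00000000162, ENSGALG00000002614 and ENSGALG00000004772 among them lie below it.

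Other immune terms held some of the members. Immune response held 192 genes, with all members except TAP2 among them. Of its genes, 103 were called in the early-maturing hens (53.6%) and 80 in the late one (41.7%). The 5 members made 5 of each number, and without them 98 and 75 of 187 genes were called (52.4% and 40.1%). Of the 103 genes called in the early-maturing hens, 68.0% were called in the late one too, and of the 80 called in the late-maturing hens, 87.5% had been called in the early one. Adaptive immune response held DMA and CTSS and 31 other genes. In all, 20 of its 33 genes were called in the early-maturing hens (60.6%) and 13 in the late one (39.4%), and these 13 were among the 20. Immune system process, the broadest, had 179 and 143 of 403 genes called (44.4% and 35.5%). Over the identifiers named in both tables, 63.7% of those called in the early-maturing hens were called in the late one, and 79.3% of those called in the late-maturing hens had been called in the early one. In antigen processing and presentation the first share was 76.2% with the members and 68.8% without them (11 of 16 genes), and the second covered all 16 genes with the members and all 11 without them.

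**Figure D2:**
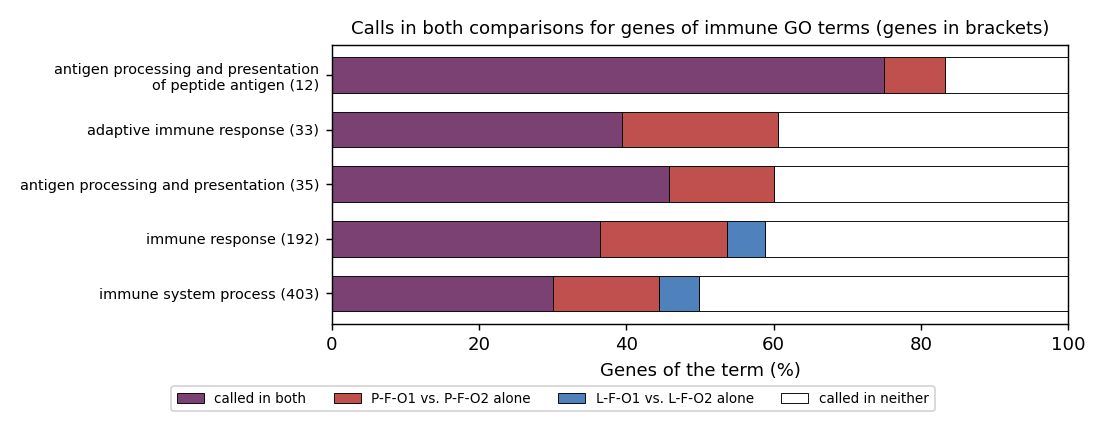
Share of the genes of each immune GO term (horizontal axis, %) called in both comparisons, in 1 alone or in neither, with the number of genes in brackets. Antigen processing and presentation and adaptive immune response, of 35 and 33 genes, have no gene called in the late-maturing hens alone. Immune response, of 192 genes, has 10. The authors' results list the smaller terms for the early-maturing hens only, and immune response for both. Of all late-called identifiers named in both GO tables, 79.3% had been called in the early-maturing hens.

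DMA and TAP2 also belonged to the regulatory terms positive regulation of immune system process (88 of 193 genes called in the early-maturing hens and 59 in the late one) and regulation of immune system process (137 and 105 of 327). Both genes were in positive regulation of response to stimulus as well, which the early table lists with 164 of 442 genes. TAP2 and CTSS shared response to organic substance (176 of 560 genes) and response to chemical stimulus (262 of 899), which the late table lists. BLB1, DMA, DMB2 and BF1 were in plasma membrane part, with 243 and 215 of 606 genes called (40.1% and 35.5%). The same 4 genes were in protein complex, with 442 and 339 of 1835 genes called (24.1% and 18.5%), which is below the share of all population genes in each comparison. All GO terms given here are terms listed in the authors' enrichment results. How far that listing fixes a distance from the share of all genes, above or below, was not tested.

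Beyond these terms, chosen because they held 2 or more members, a pair of groups was picked after its values had been seen. DMA alone of the 6 genes was in 8 terms on the regulation of cell, leukocyte, lymphocyte or T cell activation, of 66 to 154 genes. Their called share was 47.3% to 52.0% in the early-maturing hens and 32.6% to 37.7% in the late one. TAP2 alone was in 16 molecular functions on the binding of nucleotides and related compounds. Here 22.3% to 24.4% of genes were called in the early-maturing hens and 17.4% to 19.1% in the late one. Neither gene was confined to such terms. DMA alone was also in protein transport (18.9% and 15.4% called) and organelle membrane (19.7% and 12.2%), below the share of the population, and TAP2 alone in response to biotic stimulus (45.7% and 30.6%), above it.

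**Figure D3:**
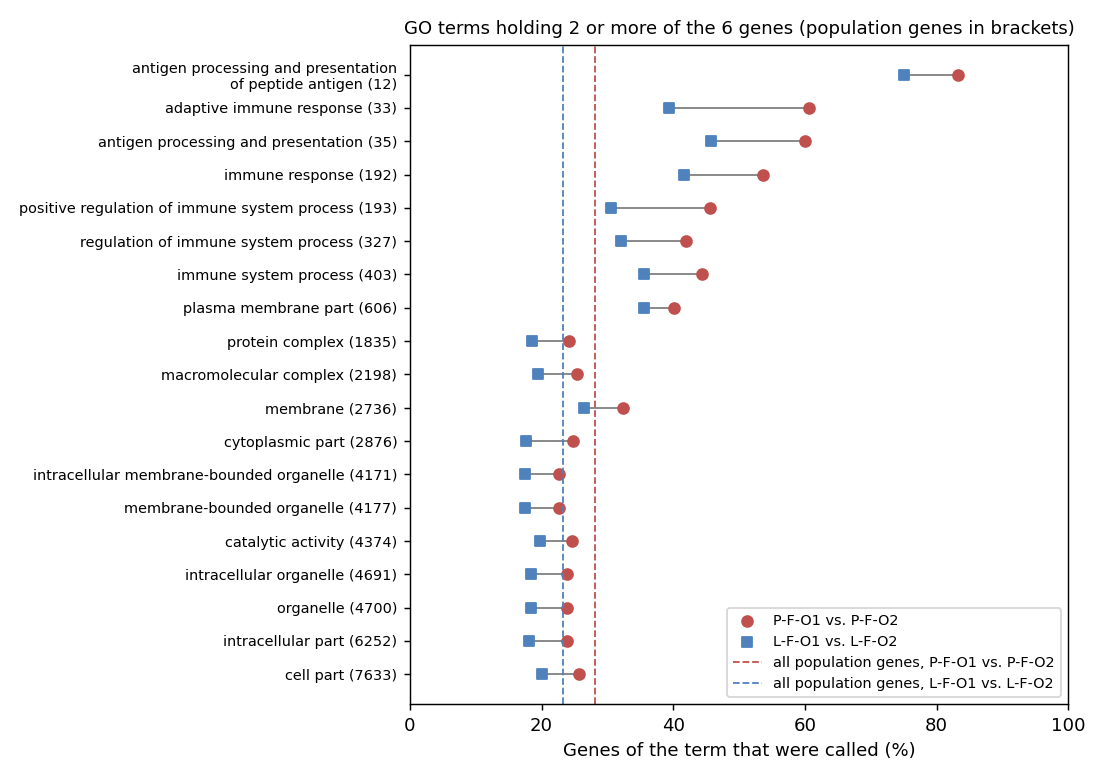
Share of called genes (horizontal axis, %) in each GO term that holds 2 or more of the 6 genes and whose genes are all named in both tables, for the early-maturing (circles) and the late-maturing (squares) hens, with the number of population genes in brackets. The dashed lines mark the share in all population genes, 28.1% and 23.2%. Peptide antigen presentation stands highest, with 83.3% and 75.0%. These shares include DMA and TAP2, which were chosen from genes called in the early-maturing hens. Without them 8 and 7 of its 10 genes were called. Only terms listed in the authors' enrichment results are shown. The part of that listing in the distance from the lines was not tested.

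The genes most like each member by their GO terms were looked for among all identifiers named in both tables. Apart from one another, BLB1, DMB2 and BF1 had 16 genes with an identical set of terms, none with a name. Of the 19 genes in all, 10 were called in the early-maturing hens and 6 in the late one, beside 28.1% and 23.2% of all genes. The counts of 10 and 6 include the 3 members, each called in both comparisons and chosen from genes called in the early-maturing hens. The annotation that these 3 members carry was thus shared by 9 genes that were not called in the early-maturing hens. For DMA the nearest gene was ENSGALG00000000996 (Jaccard index 0.659), which was called in neither comparison. The nearest gene to TAP2 (0.735) was called in neither too. CTSS was nearest to ENSGALG00000016666 (0.722), which was called in both.

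In the Kyoto Encyclopedia of Genes and Genomes (KEGG) tables, which list only called genes, the 6 genes were in 7 pathways, and the same 7 held the same members in both comparisons. The pathways of a gene are fixed by its annotation, so this sameness follows from the calls of all 6 genes in both comparisons. Phagosome, the route by which engulfed particles reach the lysosome, listed all 6. They were 6 of its 13 called genes in the early-maturing hens and 6 of its 11 in the late one, out of 24 background genes. Without the members, whose early calls were fixed by their choice, 7 and 5 of its 18 genes were called. Over all genes of the GO analysis, which is not the KEGG background, 28.1% and 23.2% were called. Herpes simplex infection, also of 24 background genes, listed every member except CTSS, that is 5 of 13 and 5 of 11 called genes. Here and below, the genes of a pathway are the background genes counted by the authors, which may be fewer than the whole pathway. Without them, 8 and 6 of 19 genes were called. BLB1, DMA, DMB2 and BF1 were in cell adhesion molecules. This pathway had 10 and 9 of 22 genes called, or 6 and 5 of 18 without them. The 3 class II genes were in influenza A, with 10 and 7 of 17 genes called, or 7 and 4 of 14 without them. The same 3 genes were in the intestinal immune network for IgA production, with 6 of 7 called in each, or 3 of 4 without them. CTSS was the one member in lysosome (5 and 6 of 15 genes called, 4 and 5 of 14 without it). BF1 was the one in endocytosis (8 and 10 of 33, 7 and 9 of 32 without it).

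**Figure D4:**
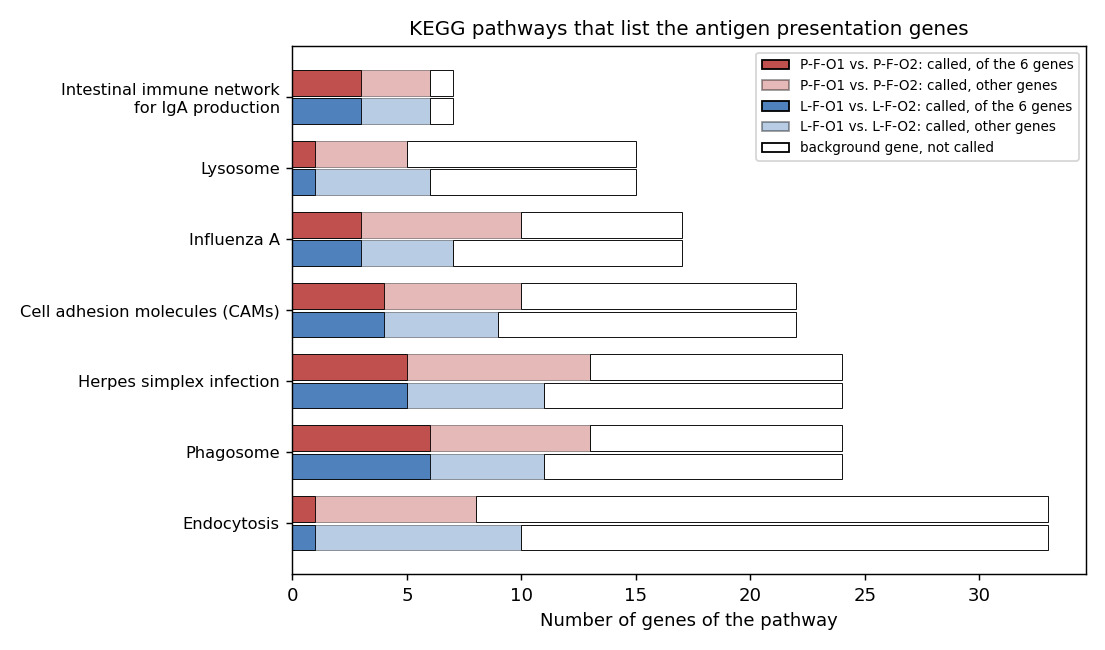
Number of background genes counted by the authors (horizontal axis) in each KEGG pathway that lists a member, for the early-maturing (upper bar) and the late-maturing (lower bar) hens. The background may be smaller than the whole pathway. Solid parts are the members, pale parts other called genes and white parts background genes that were not called; the solid part is the same length in both bars of every pathway, from 1 gene in lysosome and endocytosis to 6 in phagosome. The equal length follows from the calls of all 6 genes in both comparisons.

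The pathways thus overlap in the genes that they count. In the early-maturing hens the 7 pathways together listed 35 called identifiers, the members and 29 others, and in the late one 31, the members and 25 others. Of these other genes, 19 were listed in both comparisons. BLB1, DMA and DMB2 were listed in the same 5 pathways, and so was ENSGALG00000000199, which has no name in the gene table. ENSGALG00000024372, also without a name, was listed in the same 4 pathways as BF1 and is one of the 16 genes that carry the GO terms of BF1. In the IgA network the other called genes were PIGR, which carries IgA across epithelia, ENSGALG00000000199 and 1 that differed between comparisons. That 1 was MAP3K14, a kinase of the NF-kappa-B pathway, in the early-maturing hens and ENSGALG00000000892 in the late one. Names are given here only to genes called in the early-maturing hens, so the latter could not have a name. In phagosome the integrin ITGB3 and MRC2, a member of the mannose receptor family, were called in both. MPO and NCF1, proteins of the oxidative burst of phagocytes, were called in the early-maturing hens alone.

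The reach of the KEGG tables was narrow. Of the 156 called identifiers that they list in the early-maturing hens, 96.8% had an Ensembl number of 3000 or less, and of the 132 in the late one 97.0%. Among the called identifiers of the GO tables these shares were 14.5% and 13.9%. The numbers of the 6 members are all below 3000. B2M, TAPBP and CD74 are in none of the early pathway lists. The numbers of TAPBP and CD74 are above 3000, but that of B2M (ENSGALG00000002160) is below it. The part of this reach in the pathway counts was not tested.

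Other genes of the route were followed by a list of 46 symbols of class I, class II and regulatory genes. Of these, 7 were paired with an identifier. For class I they were B2M, TAPBP and NLRC5, a known activator of class I genes. For class II they were CD74, RFX5, a factor that binds class II promoters, and CD40, a receptor on antigen-presenting cells. The regulator was IRF1, which acts in the interferon response. All 7 were called in both comparisons. The early calls follow from the pairing. IFI30, also on the list, was not paired under that symbol and is not counted here. It is another name of GILT, given above as called in both comparisons. As background for the late calls, 63.8% of the 1474 identifiers of the gene table that were called in the early-maturing hens and named in both GO tables were called in the late one.

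Markers of leukocytes were counted in the same way. Of 16 marker symbols, 7 were paired with an identifier, which again fixes their early call, and 5 of these 7 were called in the late-maturing hens, beside 63.8% of the identifiers of the gene table. PTPRC (CD45, carried by all leukocytes), CD79B (B cells), ITGB2 (leukocyte integrin), TLR4 (macrophages and other cells) and SPI1 (myeloid and B cells) were called in both comparisons. CD3D and CD3E, subunits of the T cell receptor complex, were called in the early-maturing hens alone. The calls give no level, and the part of leukocyte number in the calls of the 6 genes was not tested.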

How the data were processed

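Ovary RNA of 4 pooled libraries was sequenced. Per the study's methods, reads were cleaned (SeqPrep, Sickle) and mapped to galGal4 (TopHat), expression was computed as FPKM, and Cuffdiff was used to call genes between libraries. The called genes were then tested for GO terms (Goatools) and KEGG pathways (KOBAS). The deposited tables used here hold, for each of 166 and 182 listed GO terms and 69 and 68 pathways, numbers of called and of all genes, with the identifiers of called genes and, for GO terms, of all genes; their p-values and adjusted p-values, which are the authors' own results, were not used. Depth per library was not examined.

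Identifiers were counted with Python 3.11.15; figures used matplotlib 3.10.9. Lists broken across lines at 44 places in the late GO table were rejoined, and every identifier that had lost a character was completed from the 1 intact identifier that fitted. This step was tested on simulated breaks, some of which could not be completed because more than 1 identifier fitted. A gene was called if a GO or KEGG list of called genes named it. Names came from the study's gene table (names only, 1539 of 1947 identifiers in the part used) and RefSeq. Members, lists and alternatives were chosen with earlier results of these data known. Named were the members, up to 12 terms and pathways that held 2 or more of them, smallest first, the genes nearest by GO terms, and the lists. With 1 library per condition and members chosen by their calls, no test was run. Sequences were not used here.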

Additional observations from a re-analysis of the deposited data

How the results depend on the processing

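The number of members called was 6 in the early, in the late and in both comparisons, and it remained 6 with GO lists only, KEGG lists only, biological process terms only, terms of at most 500 genes, or broken identifiers dropped. The members were chosen from genes called in the early-maturing hens, with earlier results known. The alternatives therefore show only which lists name the members and do not test their calls. The share of all genes called was 28.0% and 28.5% in the early-maturing hens over the identifiers named in GO terms and in biological process terms, and 22.1% and 23.5% in the late one. With terms of at most 500 genes, the GO terms that held a member fell to 20 and 6, since large terms were left out by construction. Counting identical gene lists once gave 52 and 46 terms, and leaving out pathways under 10 background genes gave 6 pathways in each. As alternatives chosen after seeing the data, the late calls of antigen processing and presentation without its 5 members were 11, and those of the wider list by symbols only were 6. No paired analysis was possible because each condition had 1 library. No direction, level or error of any gene can be given from lists of calls.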

Other observations

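Markers of other ovarian cells were counted in the same way. Of 9 symbols for granulosa and theca cells, 2 were paired with an identifier: CYP17A1, a steroidogenic enzyme, was called in both comparisons and STAR, which brings cholesterol into mitochondria, in the early sub-breed alone. Of 5 oocyte symbols, 2 were paired: ZP3, a protein of the egg coat, was called in both and BMP15, an oocyte growth factor, in the early sub-breed alone. By quantitative PCR, however, the paper reports that BMP15 differed in both comparisons. SSR2, the neighbour of CTSS on chromosome 25 in the RefSeq order, was also called in both comparisons. The early calls of all these genes again follow from the pairing. Beside their late calls, 63.8% of the early-called identifiers of the gene table named in both GO tables were called in the late-maturing hens.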
